A study of Mus musculus with 4 samples.

Results

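The genes described here encode the proteins of the cytosolic ribosome. They were chosen by symbol alone, as every row named Rpl or Rps followed by a number (with a or x where the symbol has it), Rplp0, Rplp1, Rplp2 or Rpsa. The rule found 76 of the 18373 genes in the deposited table, 46 of the large subunit and 30 of the small subunit, and all 76 passed the filter on low counts. The rule used no measured value. RNA-seq was performed on primary liver sinusoidal endothelial cells (LSECs), the fenestrated endothelium of the liver, taken from 8-week-old Balb/c mice, cultured for 24 h and transfected for 48 h. 2 libraries, labelled NC, came from cells given the control siRNA. The other 2, labelled siAirn, came from cells given siRNA against Airn, a long non-coding RNA of the imprinted Igf2r locus. The titles call the libraries of a group biological replicates, but neither the labels nor the methods say whether they came from separate animals, and which siAirn each library received is not settled by them. The p-values therefore measure the spread between these libraries, which may be technical.

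The library totals ran from 17308382 to 18371959 estimated counts. Airn itself had 7 and 3 counts in the NC libraries and 11 and 9 in the libraries labelled siAirn, so these data do not show the knockdown, and the groups are named here by their labels. All 13 LSEC markers on the list were measured, and none was at 0. Their summed level was 4266 to 4283 CPM (counts scaled to the normalized library total) in NC and 2793 to 3082 CPM in siAirn. Markers of other cell types moved as well. The sum over 12 hepatocyte markers was 659 to 828 CPM in NC and 917 to 1193 CPM in siAirn, and that over 12 stellate cell and fibroblast markers was 1112 to 1321 CPM and 1321 to 1738 CPM. The 12 Kupffer cell and macrophage markers summed to 243 to 310.2 CPM in NC and 156 to 186 CPM in siAirn, and the 9 lymphocyte markers to 3.37 to 3.44 CPM and 5.31 to 6.11 CPM. No listed marker was at 0 in all libraries. The part of these shifts in the results on ribosomal proteins was not tested, and in whole cultures fewer cells of a type and less RNA per cell cannot be told apart.

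Ribosomal proteins assemble with ribosomal RNA in the nucleolus into a small subunit, which decodes the mRNA, and a large subunit, which joins the amino acids. Their mRNAs are short, abundant and mostly begin with a tract of pyrimidines at the cap (the TOP motif), through which mTORC1 and LARP1 control their translation. The genes have been copied many times into the genome as processed pseudogenes, so that short reads from them often match more than 1 place.

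The TOP motif was searched at the annotated starts. A RefSeq start (GRCm38.p6) was found for 56 of the 76 genes. A C at the start followed by at least 4 further pyrimidines (C or T) stood at 13 of these 56 starts (23.2%), and at 3.01% of the 27025 gene starts in the same reference. 3 of the 13 are shown because they carry the longest tracts, with 15 bases on each side of the boundary and the pyrimidine tract from the start base in capitals. Rpl15 lies on the minus strand at chr14:18270972-18271001, Rpl35 on the minus strand at chr2:39005117-39005146, and Rps10 on the minus strand at chr17:27635230-27635259.
Rpl15: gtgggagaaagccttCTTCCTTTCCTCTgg
Rpl35: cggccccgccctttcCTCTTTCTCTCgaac
Rps10: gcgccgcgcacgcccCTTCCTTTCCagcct
The tract runs over 13 bases in Rpl15, 11 in Rpl35 and 10 in Rps10. A run of 8 pyrimidines within 15 bases of the start was found in 44.6% of the 56 genes and in 13.9% of all genes. In the window from 250 bases before to 50 bases after the start, read on both strands, CCGGAAG stood in 41.1% of the ribosomal protein genes and 9.93% of all genes, AAGATGGC in 8.93% and 3.19%, GGGCGG in 60.7% and 38.2%, CACGTG in 10.7% and 8.09%, and TATAAA in 10.7% and 15.7%. All 13 genes with the tract at the start had a log2 fold change under 0 in siAirn against NC, with a median of -0.22, which is also the median over all 76, and 4 of the 13 (30.8%) passed the test described below, as did 24 of all 76, 8.56% of all genes tested and 32.8% of other short and abundant genes. None of the 13 is among the 4 genes called lower with the correction for length.

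Levels were compared between genes as FPKM, which divides the counts by transcript length and library total. The median level of the 76 genes was 955 FPKM over the 4 libraries. 36 genes lay above 1000 FPKM, 29 between 100 and 1000 FPKM, and 11 below 100 FPKM. The highest was Rpl41, which encodes the shortest protein of the ribosome, at 2555 FPKM. It was followed by Rpl23a, which lies at the exit of the peptide tunnel, at 2135 FPKM, and by the stalk protein gene Rplp1 at 2133 FPKM. Rpl35 and Rps26 stood at 2021 and 2010.0 FPKM, Rps24 at 1853, Rpl32 at 1774 and Rps15 at 1676 FPKM. The lowest level was that of Rpl21 at 2.56 FPKM, and Rps6 stood at 8.69 FPKM and Rpl29 at 11.9 FPKM. These are the values of the rows as deposited, and how far they stand for mRNA levels where a gene has copies was not tested. Rps6 held 0.682% of the counts of the pair it forms with its copy row, and Rpl29 1.37% of those of the 3 rows it forms with its own, as described below. Between the 11 low genes and the rest, the nearest levels were 64.1 FPKM (Rpl10a) and 126 FPKM (Rpl22).

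The question of the comparison was what changed in LSECs given siAirn. Of the 76 genes, 24 were lower in the libraries labelled siAirn by the test, and the other 52 did not pass it. With the correction for transcript length described below, 4 were called lower and the median log2 fold change was -0.04. Without it, 69 of the 76 had a log2 fold change under 0, and the median was -0.22, while the median over all 13628 genes tested was 0.00. The 24 genes were called lower, and 0 higher, by edgeR's quasi-likelihood test with a Benjamini-Hochberg adjusted p under 0.05, and DESeq2 called 31 lower and 0 higher. Over all genes tested, edgeR called 8.56% lower and 8.27% higher, and DESeq2 6.72% and 6.50%. At an unadjusted p under 0.05, 48 of the 76 were lower and 0 higher. The share of all genes below this unadjusted p is not given here, so this count and later ones at it have no background. In 60 of the 76 genes (78.9%) both siAirn libraries lay below both NC libraries, which held for 31.9% of all genes tested. It also held for 136 of 201 other short and abundant genes and 59 of 77 oxidative phosphorylation subunits, both described below. Both siAirn libraries lay above both NC libraries in 2 of the 76, Rps13 and Rpl36, and in 30.9% of all genes tested. This was so for 19 of those 201 genes and 0 of those 77 subunits. The changes were small. The study itself asked for a change of more than 1.4-fold with p under 0.05, read here as the unadjusted p. Only Rpl27a of the 76 genes passed it, against 9.96% of all genes tested.

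**Figure D1:**
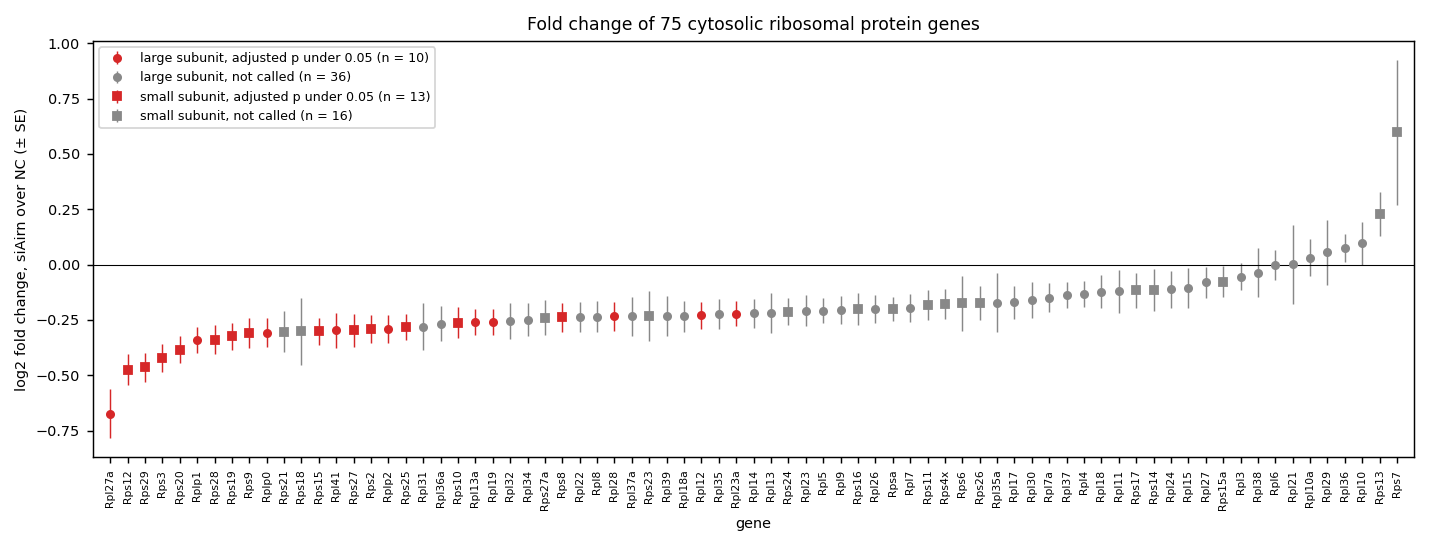
The log2 fold change of siAirn over NC with its SE is plotted for 75 of the 76 genes in order, with circles for the large and squares for the small subunit and red for an adjusted p under 0.05. Called genes are all below 0 and range from -0.67 (Rpl27a) to -0.22 (Rpl23a), and Rps7 at the right end has the widest error bar.

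Together, the 76 genes held 4.13% and 4.42% of the counts in the NC libraries and 3.84% and 3.74% in the siAirn libraries. The mean was 4.27% ± 0.211 (SD, n = 2) in NC and 3.79% ± 0.0686 (SD, n = 2) in siAirn. The groups did not overlap, and the exact permutation test (two-sided) gave p = 0.333, the smallest that 2 against 2 libraries can give. The NC libraries also differed from each other. NC replicate 2 lay above NC replicate 1 in 67 of the 76 genes, with a median log2 difference of 0.10, while siAirn replicate 2 differed from siAirn replicate 1 by a median of -0.02. The calls depended on single libraries. Counts at an unadjusted p are given without the share over all genes. When NC replicate 1 was left out, edgeR called 0 of the 76 genes, with 57 lower at an unadjusted p under 0.05, and 40 genes in the whole table. When NC replicate 2 was left out, it called 0 of the 76, with 27 lower at an unadjusted p under 0.05, and 0 genes in the whole table. Without siAirn replicate 2, 10 of the 76 were called lower, beside 5.20% of all genes tested, and without siAirn replicate 1, 24, beside 8.73%. With the length-scaled values, limma on log2(FPKM + 1) called 5 of the 76 genes lower, near the share over all genes in that fit (4.47% lower and 6.18% higher), and the median log2 fold change was -0.17.

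The proteins of the stalk, which recruits the translation factors with GTPase activity, were all called lower (3 of 3, beside 8.56% of all genes tested and 32.8% of other short and abundant genes). Rplp1 had 817 and 841 CPM in NC and 658 and 652 CPM in siAirn. Rplp0, the base of the stalk, had 1379.5 and 1499 CPM in NC and 1148 and 1178 CPM in siAirn. Rplp2 had 361 and 384 CPM in NC and 300.0 and 309 CPM in siAirn. The groups did not overlap for any of the 3 genes. Both siAirn libraries also lay below both NC libraries in 31.9% of all genes tested and 136 of 201 other short and abundant genes. The log2 fold changes of the stalk genes were -0.34 ± 0.06 (SE, adjusted p = 0.0137) for Rplp1, -0.31 ± 0.06 (adjusted p = 0.0238) for Rplp0 and -0.29 ± 0.06 (adjusted p = 0.0262) for Rplp2. With the correction for transcript length described below none of the 3 was called, at -0.16 (adjusted p = 0.125) for Rplp1, -0.17 (adjusted p = 0.0796) for Rplp0 and -0.12 (adjusted p = 0.216) for Rplp2.

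In the small subunit, 14 of 30 genes (46.7%) were called lower, beside 8.56% of all genes tested and 32.8% of other short and abundant genes, and the median log2 fold change was -0.25. Of the 30, 4 were called lower with the correction for length. Rps3, which lines the channel where the mRNA enters and is also known as a DNA repair protein, had 954 and 1009.7 CPM in NC and 749 and 716 CPM in siAirn. Its log2 fold change was -0.42 ± 0.06 (SE, adjusted p = 0.0103). Rps29, a short zinc-binding protein of the head of the subunit, had 231 and 249 CPM in NC and 176 and 171 CPM in siAirn, a log2 fold change of -0.46 ± 0.07 (adjusted p = 0.00964). The counts of Rps3 and Rps29 were whole numbers in all 4 libraries. Rps12 had 224 and 240.2 CPM in NC and 172 and 162 CPM in siAirn, a log2 fold change of -0.47 ± 0.07 (adjusted p = 0.00966). Rps20 had 344 and 359 CPM in NC and 270.1 and 269 CPM in siAirn, a log2 fold change of -0.38 ± 0.06 (adjusted p = 0.0116). For these genes each siAirn library stood below each NC library by more than the libraries of a group differed from each other.

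Rps27 and Rps15 were also called lower. Rps27, another zinc-binding protein of the small subunit, had 321 and 337 CPM in NC and 283 and 252 CPM in siAirn, a log2 fold change of -0.30 ± 0.07 (adjusted p = 0.0386). Rps15 had 719.7 and 771 CPM in NC and 610.4 and 599 CPM in siAirn, a log2 fold change of -0.30 ± 0.06 (adjusted p = 0.0232). Rpsa, which is also known as the precursor of the laminin receptor, was the gene with the most counts, at 2465 and 2520.3 CPM in NC and 2195 and 2143 CPM in siAirn. Its groups did not overlap, and its log2 fold change of -0.20 ± 0.06 did not pass the test (adjusted p = 0.0512). Rps24 had 1100.2 and 1097 CPM in NC and 973 and 923 CPM in siAirn (log2 fold change -0.21, adjusted p = 0.0520). Rps26 had 691 and 769.5 CPM in NC and 671 and 623 CPM in siAirn (log2 fold change -0.17, adjusted p = 0.156). Rps6, whose protein is phosphorylated downstream of mTORC1, had only 10.8 and 11.2 CPM in NC and 10.1 and 9.38 CPM in siAirn (log2 fold change -0.17 ± 0.13, adjusted p = 0.367).

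In the large subunit, 10 of 46 genes (21.7%) were called lower, beside the same shares of 8.56% and 32.8%, and the median log2 fold change was -0.21. None of them is among the 4 genes called lower with the correction for length, where 11 of all 76 genes were lower at an unadjusted p under 0.05. The difference between the subunits was not tested. Rpl41 had 859 and 993 CPM in NC and 765 and 742 CPM in siAirn, a log2 fold change of -0.30 ± 0.08 (SE, adjusted p = 0.0474). Rpl23a had 988 and 1033 CPM in NC and 869.9 and 863 CPM in siAirn, a log2 fold change of -0.22 ± 0.06 (adjusted p = 0.0440). Rpl5 and Rpl11, which form a complex that binds Mdm2 when ribosome assembly is disturbed, did not pass the test. Rpl5 had 706 and 711 CPM in NC and 622 and 605 CPM in siAirn (log2 fold change -0.21, adjusted p = 0.0502), with no overlap of the groups. Rpl11 had 485 and 588 CPM in NC and 511 and 477 CPM in siAirn (log2 fold change -0.12, adjusted p = 0.423), and its groups overlapped. Rpl22, which is dispensable for translation in many cells and has a paralog, had 277 and 284 CPM in NC and 248 and 228 CPM in siAirn (log2 fold change -0.24, adjusted p = 0.0538). Rpl32 had 751 and 729 CPM in NC and 668 and 572 CPM in siAirn (log2 fold change -0.26, adjusted p = 0.0777). Rpl35 had 686 and 757 CPM in NC and 617 and 620.0 CPM in siAirn (log2 fold change -0.22, adjusted p = 0.0653).

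**Figure D2:**
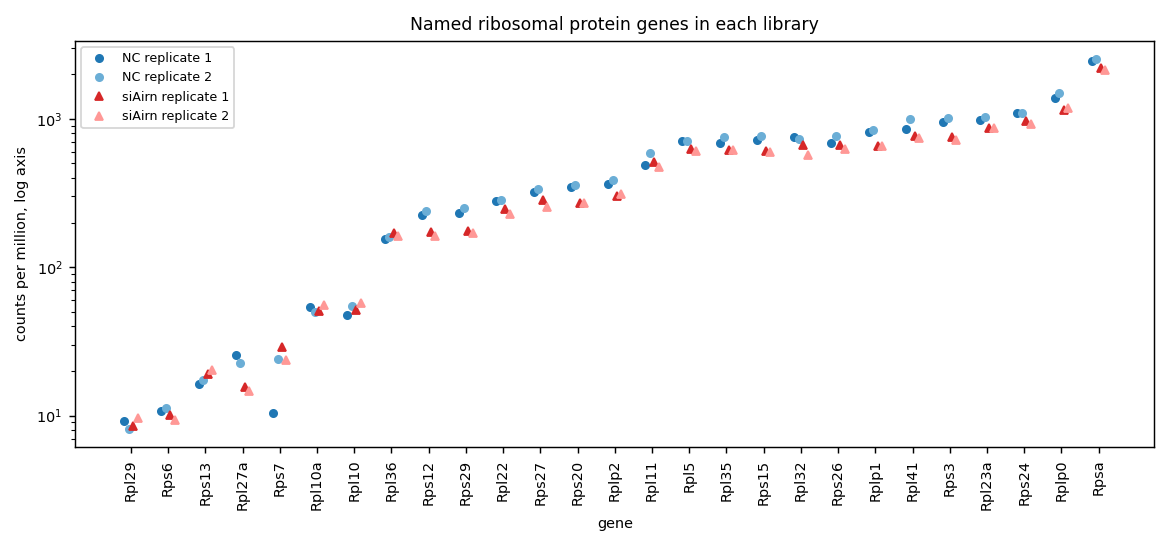
The CPM of 27 named ribosomal protein genes in each library are plotted on a log axis in order of level, with blue circles for NC and red triangles for siAirn. For most genes over 100 CPM both triangles lie below both circles, and NC replicate 1 of Rps7, at 10.4 CPM, lies apart from the other 3 libraries of that gene.

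The 6 highest log2 fold changes were not called. Rps7, a small subunit protein, had 10.4 and 24.2 CPM in NC and 28.9 and 23.6 CPM in siAirn. Its log2 fold change was 0.60 ± 0.33 (SE, adjusted p = 0.249), and it was 0.12 without NC replicate 1. Rps13 had 16.3 and 17.4 CPM in NC and 19.1 and 20.4 CPM in siAirn (log2 fold change 0.23 ± 0.10, adjusted p = 0.163). Rpl36 had 156 and 160.2 CPM in NC and 171 and 162 CPM in siAirn (log2 fold change 0.08 ± 0.06, adjusted p = 0.440). Rpl10, which joins the large subunit last in the cytoplasm, had 47.3 and 54.5 CPM in NC and 51.4 and 57.4 CPM in siAirn (log2 fold change 0.10). Rpl10a had 54.2 and 49.9 CPM in NC and 50.4 and 55.8 CPM in siAirn (log2 fold change 0.03), and Rpl29 had 9.22 and 8.18 CPM in NC and 8.46 and 9.61 CPM in siAirn (log2 fold change 0.06). 5 of these 6 genes, all but Rpl36, belong to the 11 genes under 100 FPKM.

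The fold changes were then set beside those of other short genes, because the ribosomal protein transcripts are short. The effective length implied by counts and FPKM had a median of 596 bases in the 76 genes and 2743 bases over all genes tested. Other genes showed a trend with length. The median log2 fold change rose from -0.20 in the shortest 10% of genes (n = 1299, ribosomal protein genes left out) to 0.25 in the longest 10% (n = 1363). 64 of the 76 ribosomal protein genes belong to the shortest 10%, where their median was -0.22. There were 3327 other genes between 271 and 1707 bases, the 5th and 95th percentiles of the 76, and their median was -0.16, with 14.5% called lower and 1.11% higher. Of these, 201 had at least 207 CPM, the 25th percentile of the ribosomal protein genes. Their median was -0.17, with 66 called lower (32.8%) and 7 higher, while 24 of the 76 ribosomal protein genes (31.6%) were called lower. The median effective length of these 201 genes was 1266 bases, longer than that of the ribosomal protein genes, so the 32.8% is not matched for length. Among the 76 genes, the Spearman correlation of log2 fold change was 0.20 with effective length, -0.07 with GC content and -0.08 with level, given as a description over genes that share the same 4 libraries.

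**Figure D3:**
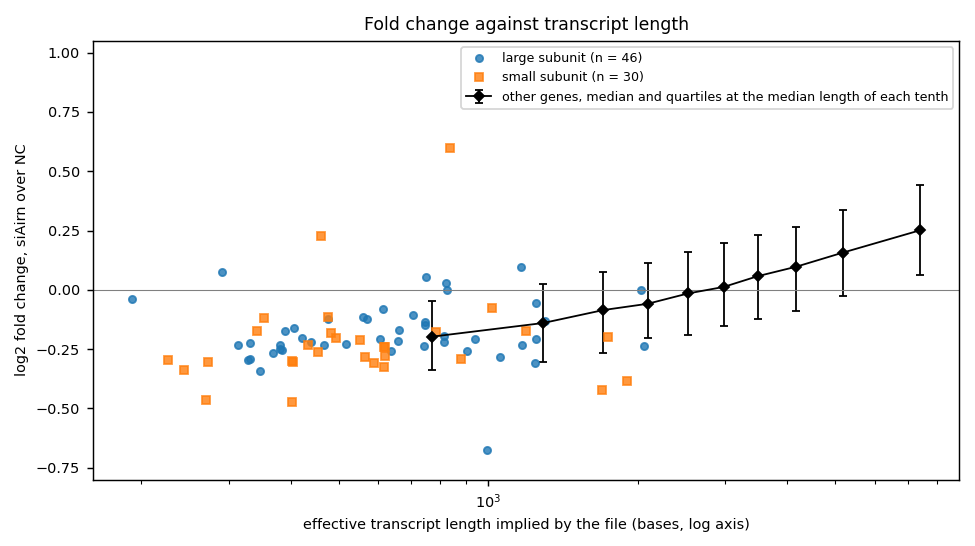
The log2 fold change of siAirn over NC is plotted against effective transcript length on a log axis, with circles for the large and squares for the small subunit. Black diamonds give the median of other genes in 10 groups of rising length with lines to the quartiles, and they rise from -0.20 to 0.25.

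A correction for transcript length was fitted in each library on the other genes. With this correction the median log2 fold change of the 76 genes was -0.04, and 49 were under 0. 4 genes were called lower and 1 higher, against 6.02% and 3.47% of all genes tested. The 4 were Rps3 at -0.33 ± 0.05 (SE, adjusted p = 0.0236), Rps20 at -0.31 ± 0.05 (adjusted p = 0.0231), Rps29 at -0.30 ± 0.06 (adjusted p = 0.0295) and Rps12 at -0.29 ± 0.06 (adjusted p = 0.0403), all of the small subunit. The gene called higher was Rps13 at 0.42 ± 0.09 (adjusted p = 0.0432), which has a mean of 18.3 CPM and shares 83.0% of its windows with other genes. Rps13 was also called with the length correction and copy rows added (0.41, adjusted p = 0.0435) and with the replicate block and length correction (0.42, adjusted p = 0.00450). It was not called at 0.22 (adjusted p = 0.189) with GC content and GENCODE length or at 0.30 (adjusted p = 0.0889) with GENCODE length alone. Both of these fits use another length than the main correction and cover 12845 genes. At an unadjusted p under 0.05, 11 of the 76 genes were lower in this fit, and no share of all genes is given for it. Rpl27a, of the large subunit, was at -0.51 in this fit and was not called (adjusted p = 0.0557). It was called at -0.61 (adjusted p = 0.0336) with GC content and GENCODE length and at -0.54 (adjusted p = 0.0383) with GENCODE length alone. The replicate block with length correction also called it, at -0.51 (adjusted p = 0.00103). When the copies described below were also added to Rps12, its length-corrected log2 fold change was -0.11 (adjusted p = 0.276). That of Rpl27a with its copy added was -0.07 (adjusted p = 0.406). What makes the fold change follow length in these libraries was not tested.

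The ribosomal protein genes share much of their sequence with other genes. For each gene, windows of 50 bases (the read length) from 1 GENCODE M21 transcript were searched in the transcripts of all other genes. The share found elsewhere had a median of 49.2%, and reached 98.6% in Rps27. Estimated counts that are not whole, as arise when a read is divided between places, were found in 64 of the 76 genes in at least 1 library, and in 28.5% of the other genes. The other 12 genes had whole counts in all 4 libraries, and all 12 had a log2 fold change under 0, with a median of -0.29 and 7 called lower, beside 8.56% of all genes tested and 32.8% of other short and abundant genes. The 39 genes with under 50% shared windows had a median of -0.23 and 12 calls, and the 37 others a median of -0.20 and 12 calls. The 65 genes over 100 FPKM had a median of -0.23, with 64 under 0 and 23 called lower. Of the 11 genes under 100 FPKM, 5 were under 0 and 1 was called, and their shared windows ran from 26.2% to 92.1%. With the correction for length, 2 of the 12, 3 of the 39, 1 of the 37 and 4 of the 65 genes were called lower, beside 6.02% of all genes tested.

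**Figure D4:**
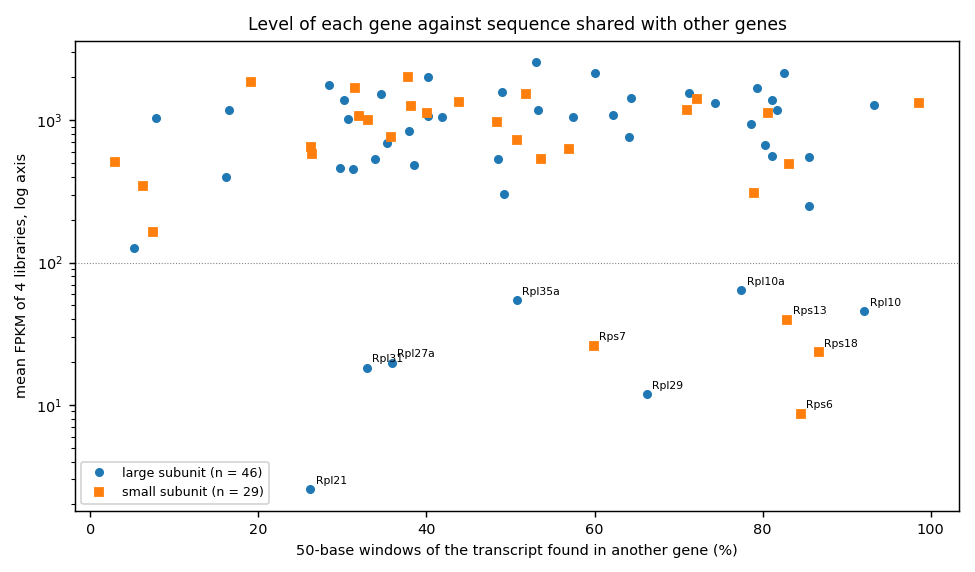
The mean level over the 4 libraries in FPKM of 75 of the 76 genes is plotted on a log axis against the share of each gene's 50-base windows found in another gene, with the 11 genes under 100 FPKM named. These 11 genes lie between 26.2% and 92.1% and are separated from the others by their level, while genes over 1000 FPKM occur up to 98.6%.

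13 rows of the table under other names hold a copy of one of 11 ribosomal protein genes, judged by a copy with at least 20% of the gene's windows lying in that row's RefSeq gene, an implied length under 1000 bases, a mean of at least 500 counts and counts that are not whole in any library. The clearest is Rps6. The row of Rps6 had 8.69 FPKM, while the row LOC105244208, which RefSeq names Rps6-ps4, had 2177 FPKM. Its copy on chromosome 2 is identical to the Rps6 transcript over 750 bases. In CPM, this row had 1509 and 1668 in NC and 1429.8 and 1423 in siAirn, and Rps6 held 0.682% of the counts of the pair. The row Naaladl2, named for a gene with a transcript of 9330 bases, has an implied length of 418 bases and 1954 FPKM. Within its span lies Gm7536, a copy identical to Rpl27a over 444 bases, and Rpl27a held 2.34% of the counts of the pair. Similarly, Pdzd8 holds Rps12-ps3, Wdr66 holds Rpl35a-ps6, and Pde6a holds Rps2-ps10. How the reads were divided between a gene and its copies was not tested.

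Coding stretches of 30 bases, shorter than a read, show how closely the copies match. They are given 5′ to 3′ along the mRNA in GRCm38, with capitals at the bases that differ, and positions counted from 1 at the 5′ end of the stretch. Rps6 (minus strand, chr4:86855957-86855986, exon 4) and its copy are identical here, and so are Rpl27a (plus strand, chr7:109520548-109520577, exon 4) and Gm7536. Rpl35a (plus strand, chr16:33057509-33057538, exon 3) differs from its copy by G26A, the only mismatch over 333 aligned bases. Rpl14 (plus strand, chr9:120574138-120574167, exon 6) differs from Rpl14-ps1 by C23T and A26G.
Rps6 and Rps6-ps4: acactactgtgcctcgtcggttgggaccta
Rpl27a and Gm7536: tggataaactgtggacattggtcagcgagc
Rpl35a: gcaagagatgtgcttatgtgtataaGgcaa
Rpl35a-ps6: gcaagagatgtgcttatgtgtataaAgcaa
Rpl14: ctgctatcctgaaagcttctccCaaAaaag
Rpl14-ps1: ctgctatcctgaaagcttctccTaaGaaag

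Adding the copy rows changed the values of the 11 genes that have them, among them Rpl27a, which had the lowest log2 fold change, and Rpl29. Of the 6 genes with the highest log2 fold changes only Rpl29 has copy rows. All 24 called genes remained called, and Rpl5, Rpl29, Rps23 and Rpl36a were called lower in addition. Rpl27a, which had 25.7 and 22.6 CPM in NC and 15.7 and 14.6 CPM in siAirn by itself, had the lowest log2 fold change (-0.67 ± 0.11, SE, adjusted p = 0.0129). With Naaladl2 added it had 868 and 943 CPM in NC and 777 and 762 CPM in siAirn, a log2 fold change of -0.23 ± 0.06 (adjusted p = 0.04999). Rps12 went from -0.47 to -0.29 ± 0.06 (adjusted p = 0.0203) with Pdzd8 added. Rpl29 moved the other way. The rows Gm8210 and Plcb1, which hold copies of Rpl29, had log2 fold changes of -0.65 ± 0.06 (adjusted p = 0.00496) and -0.61 ± 0.07 (adjusted p = 0.00627). With these rows added, Rpl29 had 765 and 805 CPM in NC and 518 and 493 CPM in siAirn, a log2 fold change of -0.63 ± 0.06 (adjusted p = 0.00481), against 0.06 by itself. Rpl29 held 1.37% of the counts of the 3 rows. With the copies added, 1 of the 76 genes passed the threshold of the study, and this was Rpl29 in place of Rpl27a. The copies were added after the values had been seen.

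**Figure D5:**
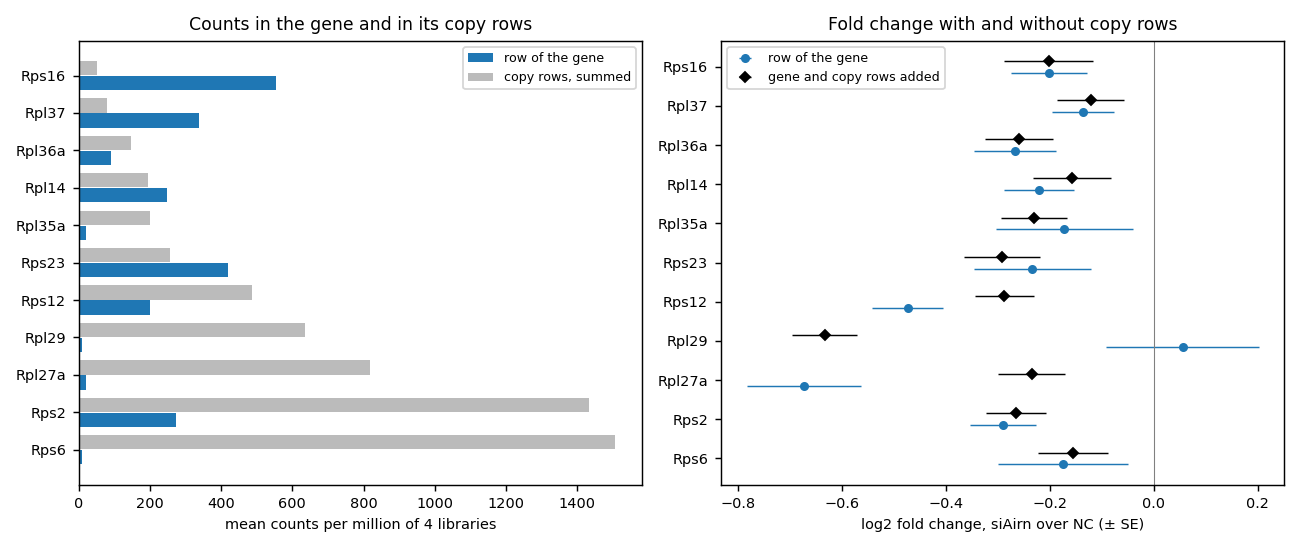
Left, the mean CPM over 4 libraries of 11 ribosomal protein genes and of their copy rows, as bars from 0. Right, the log2 fold change of siAirn over NC with its SE for the gene by itself and for the gene with its copy rows added, where Rpl27a goes from -0.67 to -0.23 and Rpl29 from 0.06 to -0.63.

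Among the ribosomal proteins that the symbol rule does not cover, Rps3a1, Fau and Rack1 had log2 fold changes under 0 that did not pass the test. Rps3a1 had 863 and 930.2 CPM in NC and 822 and 793 CPM in siAirn (log2 fold change -0.15, adjusted p = 0.151). Fau, which encodes a ubiquitin-like protein fused to a small subunit protein, had 154 and 168 CPM in NC and 154 and 144 CPM in siAirn (log2 fold change -0.11, adjusted p = 0.333). Rack1, a scaffold for kinases on the small subunit, had 1238 and 1349.7 CPM in NC and 1154 and 1218 CPM in siAirn (log2 fold change -0.13, adjusted p = 0.239). With the correction for length, Rps3a1, Fau and Rack1 had log2 fold changes of 0.03, 0.08 and 0.03.

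8 rows of the paralog list were in the table, of which 5 passed the filter. edgeR called 0 of the 5, and 2 had an unadjusted p under 0.05, Rps27l and Rpl36al. Rps27l, a target of p53, had 147 and 166 CPM in NC and 135 and 130.3 CPM in siAirn (log2 fold change -0.24). Rpl36al had 123 and 127 CPM in NC and 109 and 115 CPM in siAirn (log2 fold change -0.16). Rpl7l1 had 197 and 200.2 CPM in NC and 197 and 201 CPM in siAirn (log2 fold change 0.00), Rpl22l1 had 11.8 and 16.1 CPM in NC and 11.8 and 12.1 CPM in siAirn (log2 fold change -0.23), and Rpl34-ps1 had 8.87 and 14.3 CPM in NC and 7.63 and 11.9 CPM in siAirn (log2 fold change -0.25). The muscle paralog Rpl3l and the testis paralog Rpl39l were at or below 0.221 CPM in every library.

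Other genes of the pathway were described from lists of known members, beside the 8.56% called lower and 8.27% called higher over all genes tested. The 77 mitochondrial ribosomal proteins, which serve the ribosome of another compartment, had a median log2 fold change of -0.15, with 11 called, all lower. Those called ranged from -0.51 (Mrps24) to -0.26 (Mrpl38). The 77 subunits of oxidative phosphorylation, whose median effective length of 596 bases is the same as that of the ribosomal proteins, had a median of -0.22, with 16 called, all lower, from -0.55 (Ndufa8) to -0.28 (Atp5h). Of 38 proteasome subunits tested, with a median length of 1244 bases, 1 was called lower (Psmb10, log2 fold change -0.34), and the median was -0.07. With the correction for length, the medians were 0.01, -0.06 and 0.06, beside -0.04 for the ribosomal proteins. In that fit 3 of the 77 mitochondrial ribosomal proteins and 2 of the 77 oxidative phosphorylation subunits were called lower, beside 6.02% of all genes tested, and 1 proteasome subunit was called, Psmc6, which was higher.

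The factors that build ribosomes differed in direction. Of 67 ribosome assembly factors, 52 had a log2 fold change over 0, 9 were called, all higher, and the median was 0.11. Called genes ranged from Gnl3, a nucleolar GTPase, at 0.25 to Utp20 of the small subunit processome at 0.49. The median transcript length of this list was 2329 bases, and its median log2 fold change was 0.15 with the correction for length, with 6 called, all higher (3.47% of all genes tested were called higher in that fit). Of 20 genes of RNA polymerase I and its factors, 3 were called higher and 1 lower. Polr1b, the second largest subunit of the enzyme, had a log2 fold change of 0.47, and Polr2e, shared by the nuclear RNA polymerases, had -0.31. Other mRNAs with a TOP motif, such as those of elongation factors, had a median of 0.02 over 28 genes, with 2 called lower and 5 higher, from Tpt1 at -0.30 to Eif2s3x at 0.30. Neither Tpt1 nor Polr2e was called with the correction for length. The calls were then 4 of the TOP list, all higher, with a median of 0.11, and 3 of the RNA polymerase I list, all higher, with a median of 0.12. Of 23 regulators in the mTORC1, LARP1 and MYC list, 3 were called lower (13.0%) and 2 higher (8.70%), near the shares over all genes, and with the correction for length 2 lower and 1 higher. Rps6kb2, a kinase of Rps6, had -0.48, and Rragd, a GTPase that activates mTORC1, had 0.75. The gene called higher with the correction for length was Larp4, and Rragd was not called there. Of 20 factors that act on the ribosome or on stalled ribosomes, 2 were called, Ltn1 at 0.43 and Eif4g2 at 0.25, of which only Ltn1 was called with the correction for length. Of 16 proliferation genes, 5 were called, all higher, from Mcm3 at 0.27 to Mcm6 at 0.47, and 4 with the correction for length. No list was tested against other genes.

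Markers of cell types were compared in the same fit, where 8.56% of all genes tested were called lower and 8.27% higher. Of 13 LSEC markers, 10 were called lower, from Clec4g at -1.33 to Mrc1 at -0.40, with a median of -0.58. Of 13 pan-endothelial markers, 8 were called lower, from Eng at -0.67 to Robo4 at -0.42, with a median of -0.44. Of 11 Kupffer cell and macrophage markers tested, 7 were called lower, from Clec4f at -1.43 to Lyz2 at -0.57. The stellate cell and fibroblast list had 3 of 12 called higher, from Acta2 at 0.33 to Reln at 0.98, and the hepatocyte list 2 of 10, Apob at 0.70 and Apoa1 at 1.19. The other genes of these lists did not pass the test. In the fit with the correction for length, 11 LSEC, 6 pan-endothelial and 2 Kupffer cell and macrophage markers were called lower, and 3 stellate cell and fibroblast markers and 1 hepatocyte marker, Apoa1, higher. Whether the ribosomal proteins moved with the mix of cells was not tested.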

How the data were processed

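RNA-seq of 2 NC and 2 siAirn libraries (BGISEQ-500, single-end reads of 50 bases) was analysed. The authors deposited estimated counts per gene and library that are not normalized. The FPKM values deposited by the authors were identified from their relation to counts and totals, since the header does not name the unit. The submitters' processing notes name BWA, Bowtie2 and RSEM, with no roles or versions, and the build hg19, a human build, although the rows carry mouse gene identifiers. 4 further value columns, the authors' group means, were not used. Counts were rounded, and edgeR 4.0.16 was run in R 4.3.3 (TMM factors from 0.985 to 1.02, filterByExpr, glmQLFit and glmQLFTest), with Benjamini-Hochberg adjustment over 13628 genes. CPM use TMM-scaled totals. Standard errors are those implied by the F statistic. Effective length was computed from counts, FPKM and totals. The length correction was a natural spline with 5 degrees of freedom per library, fitted without the ribosomal protein genes. Shared windows and copies came from GENCODE M21 (GRCm38), and promoters and gene spans from RefSeq (GRCm38.p6). The calculations were tested on simulated data.

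The libraries held 17308382 to 18371959 counts, and 3 counts correspond to 0.163 to 0.173 CPM. The genes and lists were chosen with earlier results of these data known. Named genes are the 8 with the highest FPKM, the 6 highest and 6 lowest fold changes, Rplp0, Rplp1, Rplp2, Rpsa, Rpl5, Rpl11, Rpl22, Rps6 and Rps27, the ribosomal proteins outside the rule and the paralogs, and the called gene with the lowest and the highest fold change of each list. Others were named after their values were seen. Alternatives used DESeq2 1.42.0, limma 3.58.1 (FPKM plus a pseudocount of 1 or 0.1, genes with a mean of at least 1 FPKM), other normalization and filters, a replicate block, and each library left out. Single values of some genes that the rule covers are not reported here.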

Additional observations from a re-analysis of the deposited data

How the results depend on the processing

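Direction and call of the ribosomal protein genes as a group held under DESeq2, upper-quartile normalization, TMM without these genes, both other count filters, the likelihood-ratio test and the added copy rows, with 24 to 33 called lower, 0 called higher and medians from -0.23 to -0.22, beside 6.05% to 11.6% of all genes called lower. Lower calls were 5 with limma on log2(FPKM + 1) and 0 with limma on log2(FPKM + 0.1). The latter called 7 genes in the whole table and had 17 of the 76 lower at an unadjusted p under 0.05. For the 17 no share of all genes is given. Leaving out each library in turn gave 0 to 24 lower calls, medians from -0.26 to -0.16, 2 to 3 genes past the threshold of the study, and differences in the share of counts from -0.632 to -0.334 percentage points. These fits leave 1 library in a group, which is assumed to vary like the others.

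The length correction gave 4 lower and 1 higher calls (6.02% and 3.47% of all genes), a median of -0.043 and 2 genes past the threshold of the study. Further corrections were added after seeing the data. GC content with GENCODE length gave 8 lower and 1 higher (Rpl36 at 0.34, not Rps13), beside 5.20% and 2.83% of all genes. Its median was -0.069, with 3 genes past that threshold. GENCODE length alone gave 7 lower (near the 7.37% of all genes), a median of -0.073 and 2 genes past it. Length with copy rows gave 4 lower, 1 higher and a median of -0.049. Among the 12 genes with whole counts, 7 were lower and 0 past the threshold of the study, and among those over 100 FPKM 0 were past it, as fewer genes are counted.

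The replicate block gave 52 lower calls, with 17.9% of all genes called lower, and 2 genes past the threshold of the study, and the replicate block with length correction 13 lower, 5 higher, a median of -0.045 and 2, with 16.7% of all genes called lower and 13.7% higher. The numbers were not taken as pairs. Deviations of same-numbered libraries correlated at 0.23 over all genes and -0.27 over the 76, with 2 pairs only.

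Some log2 fold changes near 0 changed sign. The values listed here are only those of genes named by the rules given above. Other ribosomal protein genes also changed sign, as the number under 0 fell from 69 to 49 with the length correction. With the length correction, Rps26 was 0.0039, Rpl11 0.0714, Rps3a1 0.0275, Fau 0.0796, Rack1 0.0253 and Rpl36al 0.0188, and with the replicate block in addition 0.0025, 0.0713, 0.0268, 0.0780, 0.0252 and 0.0198. With GC content and GENCODE length, Rpl35 was 0.0108, Rpl11 0.0766, Rps6 0.0662, Fau 0.1551 and Eif4g2 -0.0170. With GENCODE length, Rps26 was 0.0034, Rpl11 0.0591, Rps3a1 0.0234 and Fau 0.0709. Rpl29 was -0.6340 with its copy rows and -0.4523 with length in addition, where Rps26 was 0.0022, Rpl11 0.0701, Rps3a1 0.0268, Fau 0.0783, Rack1 0.0250 and Rpl36al 0.0173. Rpl7l1 was -0.0075 with upper-quartile normalization and -0.0048 with no filter. With each library left out in turn, 7 of these named genes spanned 0, Rpl10 from -0.0054 to 0.1992, Rpl10a from -0.0454 to 0.1009, Rpl29 from -0.0393 to 0.1433, Rpl11 from -0.2566 to 0.0230, Rpl7l1 from -0.0106 to 0.0147, Rpl22l1 from -0.4327 to 0.0094 and Rpl34-ps1 from -0.6022 to 0.1381. The causes were not tested. Other short genes had medians of -0.13 between the shortest and longest ribosomal protein transcript and -0.11 with GENCODE lengths. A level of 0.163 to 0.173 CPM is what a count of 0 allows.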
